A study of Homo sapiens with 6 samples.

Results

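The DNA replication machinery was described here through 54 genes, taken by symbol from the gene tables of 6 RNA-seq libraries through their Ensembl identifiers. All 54 were found among the 62492 genes listed. They span origin recognition, licensing, the MCM2-7 helicase and its activation, the replicative polymerases, the sliding clamp and its loader, single-strand binding, Okazaki fragment maturation, fork protection, chromatin assembly and nucleotide supply. The libraries came from HCT116, a human colorectal carcinoma line labelled as wild type, transfected at 20 nM with siControl, a commercial control duplex, or with siNONO, a duplex against the RNA-binding protein NONO. Each group had 3 libraries, numbered in the labels as Sets 1, 2 and 3, and the design text calls them biological replicates. Both groups received the same transfection reagent, and the harvest time of these libraries is not given in the sources used here. A single siNONO duplex was used, so loss of NONO and any other effect of that duplex cannot be told apart.

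Replication starts at sites bound by the origin recognition complex, where CDC6 and CDT1 load the MCM2-7 rings in G1, a step called licensing. In S phase, CDC45 and the GINS complex join the rings to form the active helicase, and polymerases alpha, epsilon and delta copy the opened strands with the clamp PCNA. Most of these genes are transcribed around the G1/S boundary by E2F factors, and proliferating carcinoma lines express them at high level. In bulk RNA, fewer cells in S phase and less of each RNA per cell cannot be told apart.

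In siNONO, 46 of the 54 genes (85.2%) were lower, against 23.4% of all genes tested. Only 1, POLD2, was higher, against 23.2% of all genes tested, and 7 did not pass the test. The lowest were MCM10, an initiation factor, CLSPN, a checkpoint mediator that travels with the fork, and RRM2, the regulated subunit of ribonucleotide reductase, at 52.3%, 52.5% and 53.5% of their siControl levels. The changes were modest for most of the others, and the median member stood at 77.8% of its siControl level. The quasi-likelihood F-test of edgeR was run on the estimated counts, blocked by Set, with p-values adjusted after Benjamini and Hochberg over 17000 genes, and genes with an adjusted p up to 0.05 were called.

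Promoter sequences from RefSeq, on GRCh38.p14 and running from 250 bases before to 50 after each start, were held for 47 members. They were searched on both strands for the letters TTTCGCGC, TTTGGCGC and TTTCCCGC, which are forms of the E2F consensus, and a match may overlap another on the opposite strand. At least 1 match was found in 23 of the 47 members (48.9%), against 5.48% of 11669 genes tested that had a promoter. Over all 27305 genes with a promoter the share was 3.30%. A gene was counted if any of its promoters held a match. The windows below are shown for members that span the range of change, from CLSPN to TIPIN. They are written on the strand of the gene from 5′ to 3′, with the matched letters in capitals.
CLSPN (chr1:35769967-35769992, minus strand): tctggctggGCGGGAAAgcaagaaca
GINS1 (chr20:25407669-25407694, plus strand): ctttgttcgGCGCCAAAgcgcggagc
POLA1 (chrX:24693772-24693797, plus strand): catcacaggGCGCCAAAcgcgcgtcc
ORC3 (chr6:87590114-87590139, plus strand): cgagggcgcGCGGGAAAtcccgagtg
MCM6 (chr2:135876575-135876604, minus strand): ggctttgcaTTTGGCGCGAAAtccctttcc
MCM6 (chr2:135876513-135876542, minus strand): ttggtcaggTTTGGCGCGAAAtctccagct
CDC6 (chr17:40287877-40287902, plus strand): ccattcggaTTTGGCGCgagcgcggc
MCM2 (chr3:127598404-127598433, plus strand): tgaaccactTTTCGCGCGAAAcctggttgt
PCNA (chr20:5126665-5126690, minus strand): gcgtcagggGCGGGAAAaggcgtgcg
GINS3 (chr16:58392457-58392482, plus strand): tccccgggcGCGGGAAAcgagtttca
TIPIN (chr15:66356731-66356760, minus strand): ccgcacggaTTTGGCGCCAAAcgctgcggg

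MCM2, both windows of MCM6 and TIPIN hold matches on both strands that overlap. In 21 of the 23 members the nearest match was centred within 100 bases of the start. Of the members with a match, 21 of 23 were lower in siNONO, and their median log2 fold change was -0.38. Without a match, 18 of 24 were lower, and the median was -0.27. Over the genes tested, 36.3% of the 639 with a match and 25.7% of the 11030 without were called lower, with median log2 fold changes of -0.05 and 0.01. TIPIN and GINS3 had matches and were not called, while MCM10, the lowest member, had none of these letters in its window. A match is a description of the sequence, and whether a factor binds there was not measured. MCM4, MCM5, RECQL4, GINS4, POLD3, RPA2 and RPA3 had no entry in the promoter table.

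**Figure D1:**
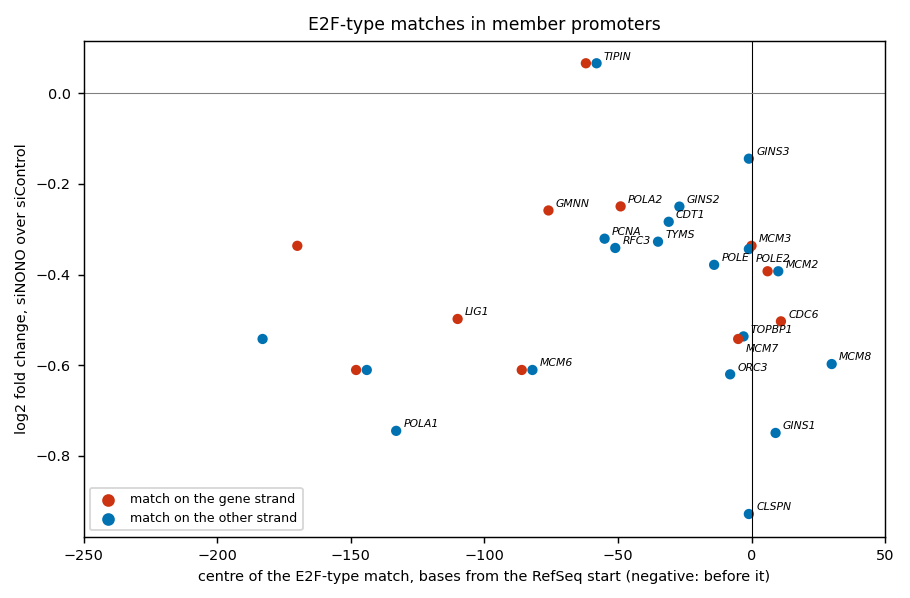
Centre of each E2F-type match in bases from the RefSeq start (x axis, negative before the start) against the log2 fold change of its gene, siNONO over siControl (y axis), for the 23 members with a match. Colours give the strand of the match. The nearest match lay within 100 bases of the start in 21 members, and TIPIN stands alone above 0.

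The members at the ends of the range were also searched for the CCAAT box, the site of the NF-Y factor, which many cell cycle promoters carry. Both MCM10, the lowest, and POLD2, the highest, held 2 matches. A match was present in 29 of 47 members (61.7%), against 42.7% of the genes tested and 39.7% of all genes with a promoter. Of the members with a CCAAT match, 25 of 29 were lower in siNONO, with a median log2 fold change of -0.50. Of those without, 14 of 18 were lower, with a median of -0.31, a wider gap than for the E2F-type letters. Over the genes tested, 29.2% with a CCAAT match and 24.2% without were called lower. No difference between motifs was tested. The capitals mark CCAAT or, on the other strand, ATTGG.
MCM10 (chr10:13161431-13161453, plus strand): agagggcgtCCAATgacgtaaac
MCM10 (chr10:13161444-13161466, plus strand): tgacgtaaaCCAATccgattgct
POLD2 (chr7:44123603-44123625, minus strand): agggcagcgATTGGtgagattag
POLD2 (chr7:44123523-44123545, minus strand): cgcgcggggATTGGcgggatgcg

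The CHR element, searched as TTTGAA or TTCGAA, is known from genes that peak in G2 and mitosis. It was found in 2 of 47 members (4.26%), MCM6 and RRM1, against 15.3% of the genes tested and 19.5% of all genes with a promoter.

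The libraries held between 21765393 and 32659002 estimated counts, and 17000 genes had enough counts to be tested. NONO, the targeted gene, stood at 18.9% of its siControl level in siNONO (log2 fold change -2.40, standard error 0.034). Of 8 epithelial markers, 7 were well expressed in every library and VIL1 was at most 0.17 TPM, and their summed level overlapped between the groups, from 3075 to 3239 TPM in siControl and from 2989 to 3336 TPM in siNONO. Single markers did not all follow the sum, since CLDN7 went from 77.5 to 96.4 TPM in siControl to 160 to 193 TPM in siNONO and EPCAM from 224 to 249 TPM to 256 to 293 TPM, and their part in the results below was not tested. The summed leukocyte markers were at 0.23 to 0.74 TPM and the endothelial ones at 0.17 to 0.34 TPM. Of the fibroblast markers, COL1A1 was at 16.2 to 19.0 TPM, while COL1A2, DCN and LUM were at or under 0.08 TPM. No 2 libraries of a group agreed within counting noise.

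All 54 members passed the filter on low counts, with 312 to 9685 estimated counts in a library. The 46 called lower are 85.2% of the members, against 23.4% of all genes tested that were called lower by the same rule. The 1 called higher stands against 23.2% of all genes tested called higher. A log2 fold change of -0.5 or lower was reached by 19 of the called members, against 6.29% of all genes tested, and none reached -1, against 1.26%. In 42 members every siNONO library lay below every siControl library, which held for 24.0% of all genes tested. The median log2 fold change of the members was -0.36, with quartiles of -0.56 and -0.23, and that of all genes tested was 0.00 to 2 decimals.

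Within Sets, the median log2 fold change of the members was -0.41 in Set 1, -0.41 in Set 2 and -0.30 in Set 3. In 44 members all 3 Sets were below 0. Set 3 was the Set nearest to 0 in 33 of the 54 members (61.1%), against 31.4% of all genes tested. Without both Set 3 libraries, an alternative chosen after the data were seen, 46 of the 47 calls were made and POLA2 was lost. Spearman's rho between log2 CPM and log2 fold change was -0.12 over the 54 members, which share the same 6 libraries.

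**Figure D2:**
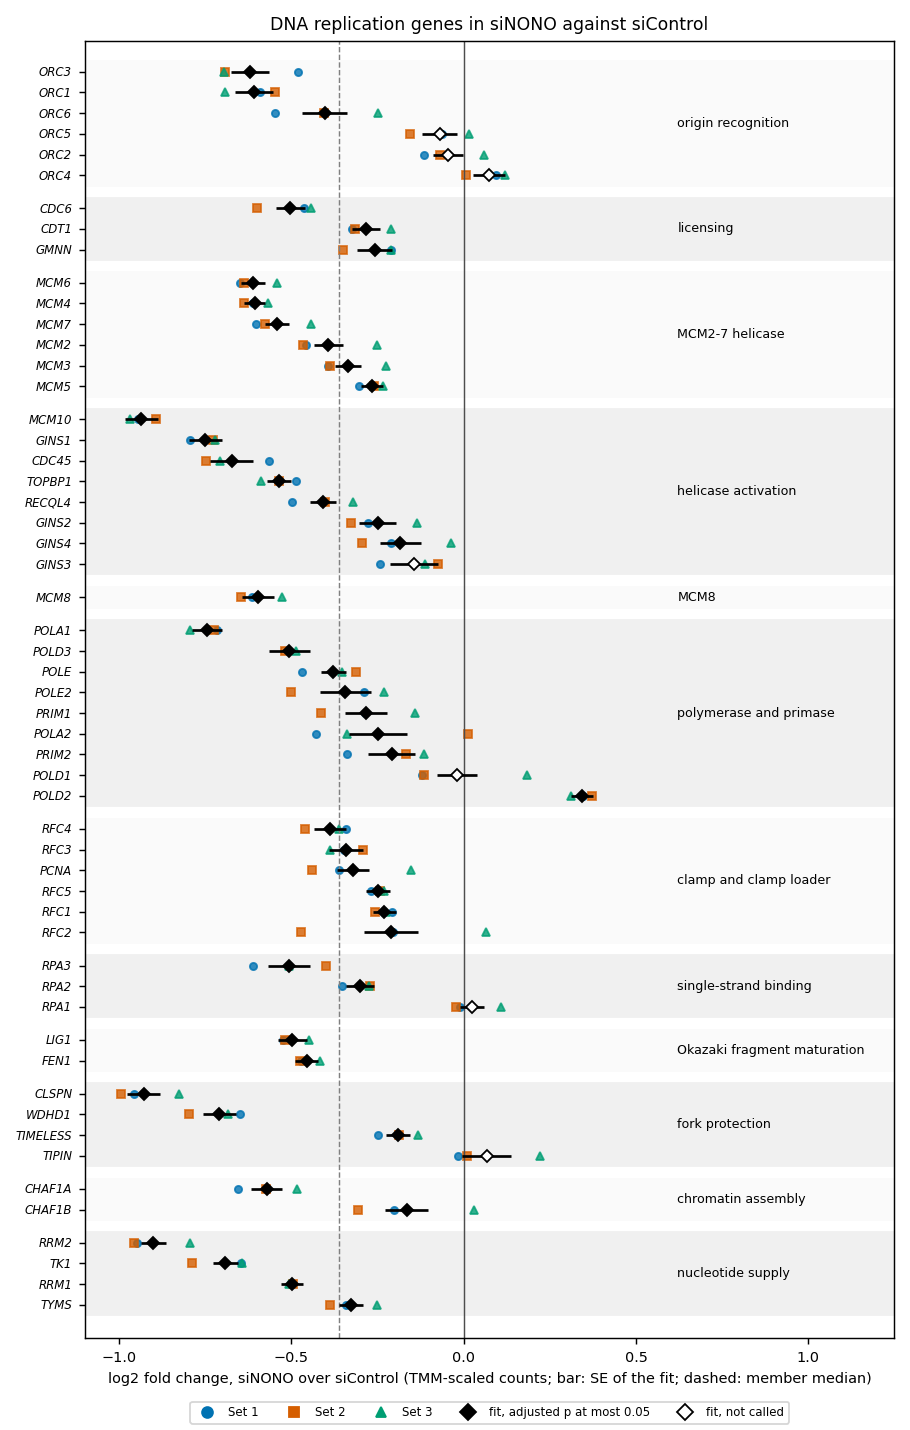
Log2 fold change of each of the 54 members, siNONO over siControl (x axis), grouped by role. Diamonds are the fitted values with their standard errors, filled where the adjusted p was at most 0.05 (47 members), and coloured symbols are the single Sets. The dashed line is the member median of -0.36, and POLD2 is the filled diamond to the right of 0.

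**Figure D3:**
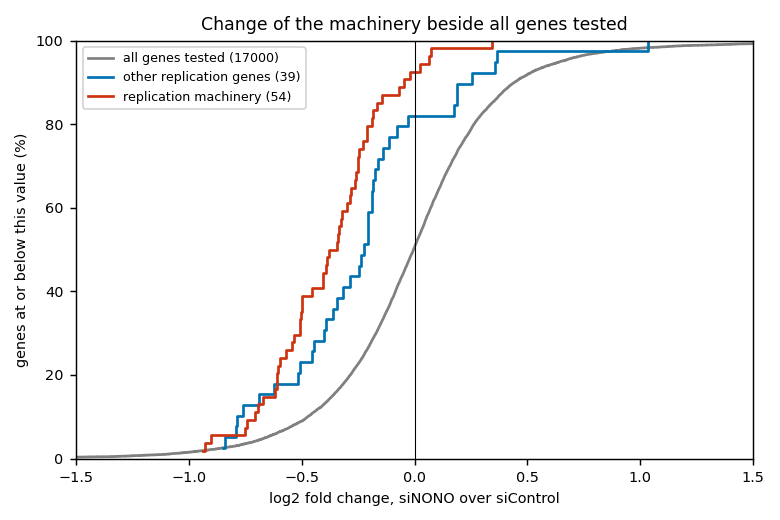
Percent of genes (y axis) at or below each log2 fold change, siNONO over siControl (x axis), for the 54 members, 39 other replication genes and all 17000 genes tested. The curve of the members lies to the left of that of all genes over most of its range, with medians of -0.36 and 0.00, and ends at 0.34.

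Origin recognition was split within a single complex. ORC1, ORC3 and ORC6 fell, while ORC2, ORC4 and ORC5 did not pass the test, with log2 fold changes of -0.04, 0.07 and -0.07. ORC1, the subunit whose abundance cycles and which closes the ring, had 30.2, 32.3 and 33.4 CPM in Sets 1, 2 and 3 of siControl and 20.1, 22.1 and 20.6 CPM in siNONO, where CPM is the count scaled to library size by edgeR. The groups did not overlap, and ORC1 fell by 0.61 on the log2 scale (standard error 0.055, adjusted p = 1.82e-06 by edgeR). ORC3, a core subunit, had 46.9, 48.8 and 48.1 CPM in siControl and 33.6, 30.2 and 29.7 CPM in siNONO. It fell by 0.62 on the log2 scale (standard error 0.054, adjusted p = 1.36e-06 by edgeR), again without overlap. ORC4, an ATP-binding subunit, had 41.9, 42.1 and 37.2 CPM in siControl and 44.7, 42.3 and 40.5 CPM in siNONO, and its groups overlapped (adjusted p = 0.229 by edgeR). ORC6, the smallest subunit, fell by 0.40.

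The make-up of the complex at the RNA level, compared per length in TPM, moved with this. In siControl the order from highest to lowest was ORC4, ORC2, ORC3, ORC5, ORC6 and ORC1, and in siNONO ORC3 came after ORC5, at a mean of 21.0 TPM against 27.9 TPM. The ratio of ORC1 to ORC2 in TPM was 0.344, 0.381 and 0.460 in Sets 1, 2 and 3 of siControl and 0.286, 0.264 and 0.264 in siNONO. These ranges did not overlap. The ratio of ORC6 to ORC2 was 0.663, 0.683 and 0.806 in siControl and 0.577, 0.524 and 0.611 in siNONO, also without overlap.

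All 3 licensing factors fell, with a median log2 fold change of -0.28. CDC6, the ATPase that loads the MCM rings with ORC, had 83.9, 94.9 and 84.9 CPM in siControl and 60.9, 62.6 and 62.4 CPM in siNONO. Its siNONO libraries lay close together and well below siControl (log2 fold change -0.50, standard error 0.041, adjusted p = 7.64e-07 by edgeR). GMNN, the geminin gene, whose product binds CDT1 and blocks relicensing, had 38.9, 46.0 and 41.1 CPM in siControl and 33.7, 36.1 and 35.5 CPM in siNONO, without overlap and with a log2 fold change of -0.26 (standard error 0.050, adjusted p = 0.000924 by edgeR). CDT1 fell by 0.28, with siNONO values in Set 3 inside the siControl range. The TPM ratio of CDT1 to GMNN, the loader to its inhibitor, overlapped between the groups, from 0.625 to 0.727 in siControl and from 0.559 to 0.737 in siNONO.

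All 6 subunits of the MCM2-7 helicase fell, and in each of them no siNONO library reached the siControl range. The median log2 fold change was -0.47. MCM6 had 148, 157 and 152 CPM in siControl and 94.5, 101 and 104 CPM in siNONO (log2 fold change -0.61, standard error 0.035, adjusted p = 3.30e-08 by edgeR). MCM4, which with MCM6 and MCM7 forms a subassembly of the ring, had 264, 295 and 280 CPM in siControl and 173, 190 and 189 CPM in siNONO (log2 fold change -0.61, standard error 0.030, adjusted p = 1.07e-08 by edgeR). MCM7 fell by 0.54, so the 3 genes of that subassembly were the lowest of the 6. MCM2 and MCM3 fell by 0.39 and 0.34, and MCM5 least, from 122, 132 and 143 to 99.3, 110 and 121 CPM (log2 fold change -0.27, standard error 0.033, adjusted p = 2.75e-05 by edgeR).

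The 6 subunits stand in equal numbers in the ring, but their RNA levels per length did not. In siControl the mean was 202 TPM for MCM7, 175 for MCM4, 109 for MCM3, 95.5 for MCM5, 67.5 for MCM2 and 60.7 for MCM6. In siNONO the order of the means was kept, at 131, 99.9, 83.5, 73.0, 48.4 and 37.5 TPM. MCM3 and MCM5 overlapped in siNONO, from 78.8 to 87.6 and from 59.8 to 80.5 TPM, and MCM7 and MCM4 overlapped in siControl, from 195 to 206 and from 154 to 203 TPM, so the order of these neighbours is not set beyond their spread.

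**Figure D4:**
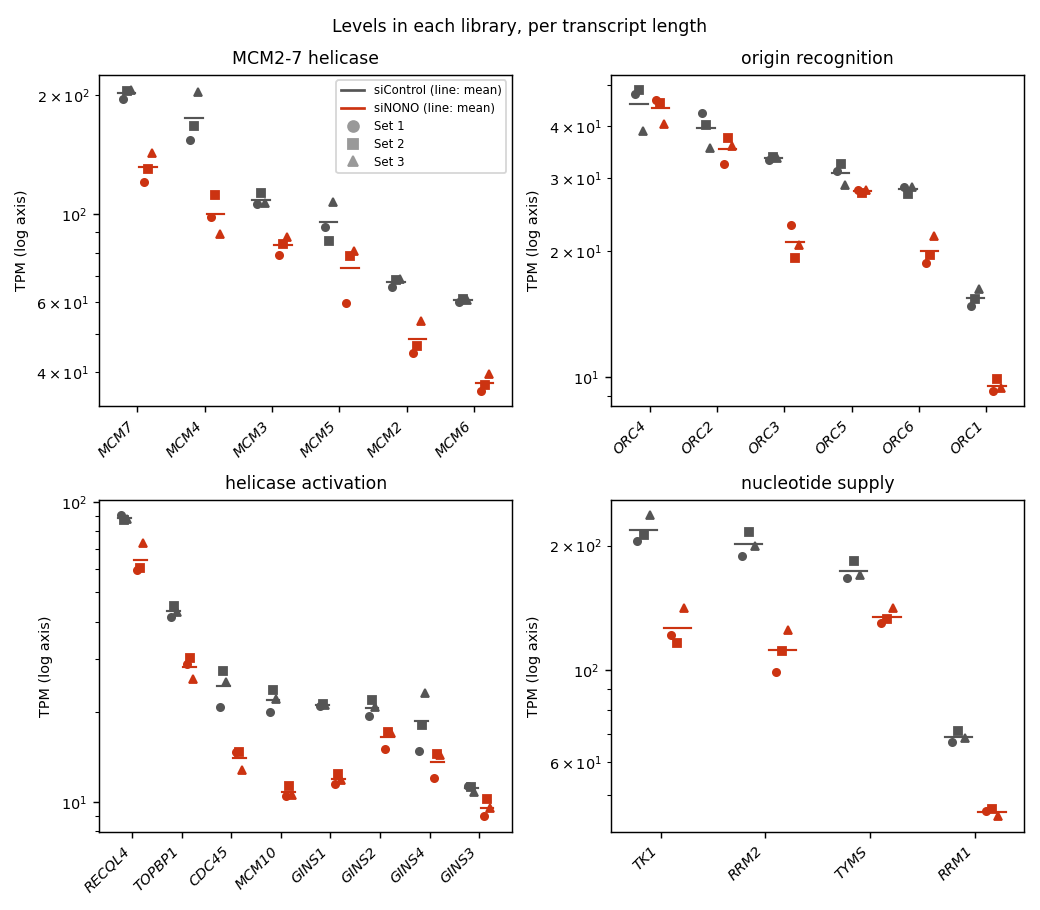
TPM in each library on log axes for MCM2-7, origin recognition, helicase activation and nucleotide supply, with grey for siControl and red for siNONO. Symbols mark the Sets and short lines the group means. The siNONO values of all 6 MCM2-7 genes lie below those of siControl, and the mean of ORC3 falls below that of ORC5.

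Among the 8 genes of helicase activation, 7 fell, with a median log2 fold change of -0.47. MCM10, on chromosome 10 of GRCh37 from 13203558 to 13253110, is needed to start unwinding and had the lowest log2 fold change of all 54. It had 47.4, 49.99 and 49.4 CPM in siControl and 24.6, 26.9 and 25.2 CPM in siNONO, a log2 fold change of -0.94 (standard error 0.048, adjusted p = 1.33e-08 by edgeR). The Sets were close, at -0.94, -0.89 and -0.97. CDC45, which joins the helicase, fell by 0.67, TOPBP1, which bridges its assembly, by 0.54, and the helicase gene RECQL4 by 0.41.

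The 4 GINS genes, whose products form a complex of equal parts, did not move alike. GINS1 had 43.7, 46.2 and 43.3 CPM in siControl and 25.2, 27.9 and 26.3 CPM in siNONO, with no overlap (log2 fold change -0.75, standard error 0.049, adjusted p = 9.66e-08 by edgeR). GINS2 and GINS4 fell by 0.25 and 0.18. GINS3 had 15.3, 15.7 and 14.6 CPM in siControl and 12.9, 14.9 and 13.5 CPM in siNONO, with siNONO in Set 2 above siControl in Set 3, and was not called (log2 fold change -0.14, adjusted p = 0.107 by edgeR). The call of GINS4 was lost with no replicate block, with DESeq2 and without any 1 library of Set 1 or 2, 6 alternatives with adjusted p from 0.0786 to 0.258. With Set as block, leaving out either library of a Set removes the comparison within it, so these leave-outs are not all separate checks. Its log2 fold change was -0.11 without the siControl library of Set 2, and -0.41 on log2(TPM + 1), where the call held. MCM8, a relative of the MCM genes outside the MCM2-7 ring that works in recombination repair, had 47.6, 53.6 and 46.9 CPM in siControl and 31.1, 34.3 and 32.5 CPM in siNONO. It fell by 0.60 (standard error 0.047, adjusted p = 5.52e-07 by edgeR), with no overlap.

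The 9 polymerase and primase genes held the single member that rose. In siNONO 7 were lower, and the median log2 fold change was -0.28. POLA1, the catalytic subunit of polymerase alpha, which starts each new strand with primase, had 54.4, 59.0 and 57.5 CPM in siControl and 33.1, 35.7 and 33.1 CPM in siNONO (log2 fold change -0.74, standard error 0.045, adjusted p = 5.15e-08 by edgeR). Its partners fell less in the fit, POLA2 by 0.25 and the primase genes PRIM1 and PRIM2 by 0.28 and 0.21. POLE and POLE2, of the leading-strand polymerase epsilon, fell by 0.38 and 0.34.

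Within polymerase delta, the lagging-strand enzyme, the 3 member genes differed, with 1 lower, 1 not called and 1 higher. POLD3, an accessory subunit, had 21.7, 22.6 and 20.3 CPM in siControl and 15.2, 15.7 and 14.5 CPM in siNONO, without overlap (log2 fold change -0.51, standard error 0.060, adjusted p = 1.84e-05 by edgeR). POLD1, the catalytic subunit, had 51.9, 54.4 and 54.2 CPM in siControl and 47.6, 50.3 and 61.6 CPM in siNONO, with Set 3 moving up and the other Sets down (log2 fold change -0.02, adjusted p = 0.819 by edgeR). POLD2, the subunit that links POLD1 and POLD3, lies on chromosome 7 of GRCh37 from 44154230 to 44163957. It had 118, 123 and 133 CPM in siControl and 150, 159 and 165 CPM in siNONO, with every siNONO library above every siControl library (log2 fold change 0.34, standard error 0.032, adjusted p = 2.28e-06 by edgeR). On log2(TPM + 1) its log2 fold change was smaller, at 0.19 (adjusted p = 0.00984 by limma), where the median of all genes tested was -0.07. POLD1 was called lower without the siNONO library of Set 3, at a log2 fold change of -0.12 (adjusted p = 0.0468 by edgeR). The median of the subgroup was -0.35 without either Set 3 library.

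The calls of POLA2 and PRIM2 were not kept in all alternatives, while TIMELESS, at a smaller change of -0.19, kept its call. POLA2 had 16.6, 16.1 and 18.8 CPM in siControl and 12.3, 16.2 and 14.8 CPM in siNONO, and in Set 2 its log2 fold change was 0.01. It was lost in 7 alternatives with adjusted p from 0.0884 to 0.219, among them those without a library of Set 1 or of Set 3. Its log2 fold change was -0.16 without either library of Set 1, -0.38 without the siNONO library of Set 2 and -0.41 on log2(TPM + 1). PRIM2 was lost in the 6 that ended the call of GINS4, with adjusted p from 0.0594 to 0.258 and a log2 fold change of -0.14 without the siControl library of Set 1. PRIM2 also shares exonic bases with its pseudogene PRIM2BP on the same strand. The counts of PRIM2 were fractional in 6 libraries, so they are uncertain. With which gene RSEM divided these reads was not examined. POLA2 shares 16.8% of its exonic bases with a gene without a symbol on the same strand, at a mean of 5.24 TPM. Its counts were fractional in 6 libraries, so they are uncertain as well. PRIM1 shares 4.2% of its exonic bases with NACA on the same strand, at a mean of 904 TPM. The counts of PRIM1 were fractional in 3 libraries, so they carry the same limit.

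All 6 genes of the clamp and clamp loader fell, by little and evenly, with a median log2 fold change of -0.28 and a range from -0.39 to -0.21. RFC4, a loader subunit, had 47.2, 52.6 and 49.4 CPM in siControl and 37.2, 38.3 and 38.4 CPM in siNONO (log2 fold change -0.39, standard error 0.046, adjusted p = 1.94e-05 by edgeR). RFC3 had 36.7, 37.0 and 31.9 CPM in siControl and 28.8, 30.2 and 24.4 CPM in siNONO (log2 fold change -0.34, standard error 0.050, adjusted p = 0.000120 by edgeR), and both genes lay below siControl in every library. PCNA, the ring that tethers polymerases to DNA, fell by 0.32 in the fit on counts. At a mean of 199 TPM in siControl and 149 TPM in siNONO it was the highest of the 6 per length, with a log2 ratio of -0.41 on that scale. All genes tested had a median of -0.07 on log2(TPM + 1), so the 2 values of PCNA are not on a like footing. RFC1, the large subunit, and RFC5 fell by 0.23 and 0.25. RFC2 overlapped between the groups, with 35.7, 44.04 and 34.2 CPM in siControl and 31.0, 31.7 and 35.8 CPM in siNONO, and Set 3 went up by 0.07 (log2 fold change -0.21, standard error 0.079, adjusted p = 0.0437 by edgeR). Its call was lost in the 6 alternatives that ended that of GINS4 and on both log2 TPM scales, with adjusted p from 0.0638 to 0.564. The log2 fold change of RFC2 was -0.06 and -0.07 without the siControl or the siNONO library of Set 2, and -0.34 without either library of Set 3.

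**Figure D5:**
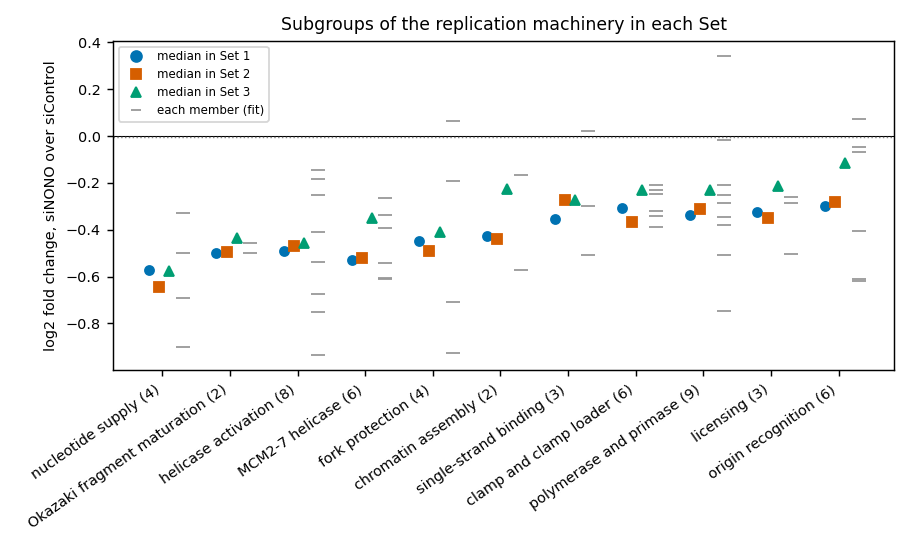
Median log2 fold change of each subgroup of at least 2 members in Sets 1, 2 and 3 (y axis, siNONO over siControl), ordered by the median of the fitted values (x axis, number of members in brackets). Grey dashes are the fitted values of the single members. Nucleotide supply is lowest in each Set and origin recognition is nearest to 0 in Set 3, at -0.12.

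The subunits of replication protein A, which coats single-stranded DNA, were unequal. RPA3, the smallest, had 25.5, 24.8 and 24.4 CPM in siControl and 16.7, 18.8 and 17.2 CPM in siNONO (log2 fold change -0.51, standard error 0.062, adjusted p = 2.38e-05 by edgeR). RPA2 fell by 0.30. RPA1, the largest subunit and the main DNA-binding part, had 155, 161 and 151 CPM in siControl and 154, 158 and 162 CPM in siNONO, with groups that overlapped (log2 fold change 0.02, standard error 0.035, adjusted p = 0.617 by edgeR).

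Both genes of Okazaki fragment maturation fell. FEN1, the flap nuclease, had 117, 124 and 126 CPM in siControl and 84.2, 89.3 and 94.2 CPM in siNONO (log2 fold change -0.46, standard error 0.034, adjusted p = 3.10e-07 by edgeR). LIG1, the ligase that seals the nicks, had 60.1, 64.9 and 65.4 CPM in siControl and 41.7, 45.3 and 47.9 CPM in siNONO (log2 fold change -0.50, standard error 0.042, adjusted p = 9.33e-07 by edgeR). Neither gene overlapped between the groups.

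The fork protection genes were uneven, with 3 of 4 lower and a median log2 fold change of -0.45. CLSPN, on chromosome 1 of GRCh37 from 36185819 to 36235579, had 59.5, 67.3 and 59.2 CPM in siControl and 30.6, 33.8 and 33.4 CPM in siNONO, well apart (log2 fold change -0.93, standard error 0.048, adjusted p = 1.34e-08 by edgeR). WDHD1, which couples the helicase to polymerase alpha, fell by 0.71, and TIMELESS by 0.19. TIPIN, the partner that TIMELESS binds, had 14.9, 17.5 and 14.2 CPM in siControl and 14.7, 17.7 and 16.6 CPM in siNONO, overlapped throughout and was not called (log2 fold change 0.07, standard error 0.070, adjusted p = 0.474 by edgeR).

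The large subunit of the histone chaperone CAF-1, CHAF1A, had 64.9, 68.9 and 66.4 CPM in siControl and 41.2, 46.2 and 47.5 CPM in siNONO (log2 fold change -0.57, standard error 0.045, adjusted p = 5.04e-07 by edgeR). CHAF1B, the middle subunit, had 37.6, 38.8 and 31.9 CPM in siControl and 32.6, 31.3 and 32.5 CPM in siNONO, so the groups overlapped and Set 3 moved by 0.03 upward (log2 fold change -0.17, standard error 0.062, adjusted p = 0.0450 by edgeR). The call of CHAF1B was lost in the 6 alternatives that ended that of GINS4, with adjusted p from 0.1096 to 0.428. Its log2 fold change was -0.08 and -0.09 without the siControl or the siNONO library of Set 2, -0.25 without either library of Set 3 and -0.32 on log2(TPM + 1).

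Nucleotide supply had the lowest median of the subgroups with several members, at -0.60, and all 4 of its genes fell without overlap. RRM2, on chromosome 2 of GRCh37 from 10260825 to 10351851, had 256, 282 and 239 CPM in siControl and 133, 145 and 138 CPM in siNONO (log2 fold change -0.90, standard error 0.037, adjusted p = 1.58e-09 by edgeR, the lowest of the members). RRM1, the large subunit of the same enzyme, fell by 0.50 in the fit and by 0.49, 0.50 and 0.51 in Sets 1, 2 and 3. The TPM ratio of RRM2 to RRM1 was 2.82, 3.03 and 2.90 in siControl and 2.16, 2.41 and 2.82 in siNONO, so the ranges overlapped at Set 3. TK1, the salvage enzyme thymidine kinase, fell by 0.69 in the fit on counts. Its mean was 218 TPM in siControl and 126 TPM in siNONO, a log2 ratio of -0.79 on that scale. On log2(TPM + 1) the median of all genes tested was itself -0.07.

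TYMS, which makes thymidylate and is the target of fluorouracil, fell least of the 4. It had 145, 160 and 150 CPM in siControl and 115, 122 and 126 CPM in siNONO (log2 fold change -0.33, standard error 0.035, adjusted p = 7.93e-06 by edgeR). Of its exonic bases, 39.9% overlap ENOSF1 on the opposite strand, and the strand setting of the counting is not given in the sources used here, so reads of the pair may have been shared.

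Licensing (CDC6, CDT1 and GMNN, without MCM2-7), polymerases with primase, and the clamp with its loader had the same median to 2 decimals, -0.28. Nucleotide supply was at -0.60. Between these lay Okazaki fragment maturation at -0.48, MCM2-7 and helicase activation at -0.47, and fork protection at -0.45. Chromatin assembly at -0.37 and single-strand binding at -0.30 also lay between, and origin recognition was at -0.24. In single Sets, licensing had medians of -0.33, -0.35 and -0.21, polymerases with primase -0.34, -0.31 and -0.23, and the clamp with its loader -0.31, -0.37 and -0.23. Nucleotide supply stood at -0.57, -0.64 and -0.57. The subgroups share the same libraries and hold few genes, and no test of the difference between them was made.

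A further 39 replication genes outside the 54, listed by function, were all tested. In siNONO 28 (71.8%) were lower, against 23.4% of all genes tested, 7 were higher, a share no larger than the 23.2% of all genes tested, and 4 were not called. The median log2 fold change was -0.23. All 4 genes of alternative clamp loaders, all 8 of histone supply and maintenance and 8 of 10 of origin firing and licensing control were lower. Nucleotide metabolism was mixed, with 5 of 9 lower, 4 higher and a median log2 fold change of -0.19. Primer removal and topology had 2 of 5 lower and 2 higher. Of 3 further polymerase subunits, 1 was lower and 1 was higher. ATAD5, which unloads PCNA, had 24.0, 25.1 and 21.5 CPM in siControl and 13.2, 13.5 and 12.4 CPM in siNONO (log2 fold change -0.85, standard error 0.062, adjusted p = 2.49e-07 by edgeR). CHTF8, of the CTF18 clamp loader, had 127, 119 and 127 CPM in siControl and 63.9, 66.2 and 79.9 CPM in siNONO (log2 fold change -0.84, standard error 0.051, adjusted p = 5.77e-08 by edgeR). ASF1B, a histone chaperone, had 58.9, 64.2 and 66.0 CPM in siControl and 34.9, 34.5 and 40.1 CPM in siNONO (log2 fold change -0.79, standard error 0.047, adjusted p = 5.19e-08 by edgeR). None of these 3 overlapped between the groups.

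The 3 highest of these were SAMHD1, RRM2B and POLD4. SAMHD1, which breaks down deoxynucleotides, had 37.1, 34.8 and 34.4 CPM in siControl and 72.5, 71.1 and 74.6 CPM in siNONO (log2 fold change 1.04, standard error 0.045, adjusted p = 2.81e-09 by edgeR). This change was opposite in direction to that of the 4 nucleotide supply members. RRM2B, the p53-inducible counterpart of RRM2, had 94.8, 91.7 and 82.3 CPM in siControl and 128, 119 and 99.6 CPM in siNONO. These did not overlap (log2 fold change 0.36, standard error 0.038, adjusted p = 6.44e-06 by edgeR). Per length the groups did overlap, from 36.4 to 39.9 TPM in siControl and from 39.4 to 55.5 TPM in siNONO. POLD4, the small subunit of polymerase delta, had 11.2, 9.06 and 9.21 CPM in siControl and 10.5, 15.1 and 12.5 CPM in siNONO, with overlapping groups (log2 fold change 0.36, standard error 0.13, adjusted p = 0.0328 by edgeR). On log2(TPM + 1), 1 gene of the 39 was called higher.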

How the data were processed

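RNA-seq libraries of 3 siControl and 3 siNONO cultures of HCT116 cells were used. After trimming with sickle, the authors mapped reads to GENCODE transcripts on GRCh37 with STAR and counted with RSEM (version 1.3.1). Per the file headers, each library has an estimated count, which is not normalized, and a deposited TPM, scaled by RSEM for transcript length and depth. The TruSeq Stranded kit was used.

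Counts were rounded and fitted with edgeR (version 4.0.16, in its edgeR 3 form; TMM, filterByExpr, Set as block) over 17000 genes. The Set, from the labels, was taken as the study's batch. Deviations from the group means correlated within each Set (at 0.426, 0.253 and 0.503 over 10840 genes, all above 0.1). Between unlike Sets the correlations ran from -0.436 to 0.159. Sets 1 and 2 crossed also passed 0.1, at 0.159 and 0.145, so passing that limit does not by itself show the pairing. Each library correlated most with that of its own Set, and the numbers were taken to pair them. The biological coefficient of variation was 3.51%, and depth ran from 21765393 to 32659002 counts. Names were matched by Ensembl identifier, 54 of 54. Of the members, 16 had a fractional count in at least 1 library, since RSEM divides reads that fit several genes.

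The members and the lists were chosen with earlier results of these data known. Per-library values are given for the lowest and highest member of each subgroup, the second lowest in subgroups of 5 or more, both of a pair, and the 3 lowest and 3 highest called genes of the further list. POLA2 and POLD1 were added after their values were seen. Alternatives were no block, other scalings and filters, the edgeR 4 form, DESeq2 (version 1.42.0), limma (version 3.58.1) on log2(TPM + 1) and log2(TPM + 0.1), and each library left out.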

Additional observations from a re-analysis of the deposited data

How the results depend on the processing

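Over the 54 members and 16 alternatives, 817 of 864 values kept both direction and call, 33 lost the call, 1 gained it and 13 changed sign, all of the last in genes that were not called. These are not independent checks, since with Set as block the leave-outs of a Set nearly repeat each other. CHAF1B, for example, was at -0.250 without the siControl library of Set 3, -0.253 without the siNONO library of Set 3 and -0.250 without both. With no replicate block, 42 of the 47 calls were made and GINS4, POLA2, PRIM2, RFC2 and CHAF1B were lost, and the same 5 were lost with DESeq2. Scaling by DESeq2's size factors or by library size alone, other filters and the edgeR 4 form kept all 47 calls. Leaving out 1 library at a time, members called lower ran from 41 to 46, those lower by at least 0.5 from 17 to 20, and the member median from -0.40 to -0.33. The polymerase and primase median then ran from -0.35 to -0.25, and it was -0.35 without both libraries of Set 3.

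On log2(TPM + 1) and log2(TPM + 0.1) by limma, the member median was -0.44 and -0.45, and all genes had medians of -0.07 and -0.09. Subgroup medians on these scales were -0.39 and -0.39 for the clamp and loader, -0.51 and -0.54 for fork protection, -0.53 and -0.54 for helicase activation, -0.42 and -0.43 for licensing, -0.69 and -0.70 for nucleotide supply, -0.53 and -0.54 for Okazaki fragment maturation, -0.41 and -0.43 for polymerase and primase, and -0.39 and -0.40 for single-strand binding. For the other replication genes the medians were -0.33 and -0.33, with 1 and 1 called higher. With the smaller pseudocount 1 member was lower by at least 1. RFC2 lost its call on both scales. With the smaller pseudocount, RFC1 was at -0.38, TIMELESS at -0.31 and CDT1 at -0.43. All genes called higher numbered 2612 with DESeq2 and 1643 and 1638 on the TPM scales, against 3939, and those called lower 2615 with DESeq2, against 3985. The cause was not tested.

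Genes near 0 changed sign. ORC4 was at -0.029 and -0.030 on the TPM scales. RPA1 was at -0.12 on both, at -0.013 without the siControl library of Set 3 and without both libraries of Set 3, and at -0.016 without the siNONO library of Set 3, and it ran up to 0.060 without a library of another Set. POLD1 ran from 0.031 to 0.042 without a library of Set 1 or 2, and was at -0.12 without the siNONO library of Set 3. TIPIN was at -0.00014 and -0.0030 without the siControl or the siNONO library of Set 3, and at up to 0.11 without a library of another Set. The median over all genes was 0.0014 without a filter, from -0.0095 to 0.0031 without 1 library and 0.0031 without both libraries of Set 3. Standard errors were 0.084 for POLA2, 0.079 for RFC2, 0.070 for TIPIN and 0.069 for GINS3, against 0.030 for MCM4. POLA2, TIPIN and GINS3 had few counts, while RFC2 had 750 to 1206 in a library. The Sets also differed in RFC2, at -0.20, -0.47 and 0.07, and in POLA2, at -0.43, 0.01 and -0.34. Small changes of such genes are less well resolved, and the reason was not tested.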
